A study of Rattus norvegicus with 9 samples.

Results

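De novo lipogenesis, the making of fatty acids from carbohydrate carbon, was followed through 10 genes in the livers of old and young male rats. The members were fixed by name as the transcription factor genes SREBF1 and MLXIPL, the enzyme genes ACLY, ACACA, ACACB, FASN, SCD, ELOVL6 and ME1, and the small protein gene THRSP, which are written below in the rat style (Srebf1). All 10 were found among 23479 gene symbols, in 11 rows, because the table holds an SCD1 row and an SCD row. In the RefSeq annotation of GRCr8, Scd1 is an older name of Scd, and Scd is an older name of Scd2. The SCD1 row was therefore taken as the member and is called Scd1 here, and the SCD row is given apart as uncertain between these paralogs.

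The study counted poly(A) RNA from 9 livers of Wistar rats, an outbred laboratory strain. The 4 old males were 24 months old and the 5 young males 6 months, and the series design speaks of 4 to 5 animals per group. No treatment or altered gene is given for either group, and p-values between the ages set the difference against the spread between these animals. Values are CPM, that is counts divided by the library size after scaling with edgeR's TMM method, and fold changes are old over young. In old 1 every count was even, and markers of heart muscle were found in young 2 to 5 (values at the end).

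In liver, insulin and carbohydrate feeding are known to switch on this pathway. The protein made from Srebf1, SREBP-1, is held in the endoplasmic reticulum by SCAP and INSIG proteins until it is cut and enters the nucleus, while the protein made from Mlxipl, ChREBP, responds to sugar metabolites. Citrate exported from mitochondria is split by ATP citrate lyase (Acly), acetyl-CoA carboxylases (Acaca, Acacb) make malonyl-CoA, and fatty acid synthase (Fasn) builds palmitate with NADPH that malic enzyme (Me1) helps to supply. The product is then elongated by Elovl6 and desaturated by Scd1.

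No lipogenic gene that could be tested passed the threshold between old and young livers. By edgeR's quasi-likelihood test with Benjamini-Hochberg adjustment at 0.05, 0 of 9 tested members were called, where 1.00% of all 12778 genes tested were (0.657% higher and 0.344% lower in old livers). At an unadjusted p under 0.05 there were 2 members, Mlxipl and Me1, both lower, where 15.9% of all genes reached that level, 6.96% lower and 8.94% higher. DESeq2 called 1 member, Me1, where it called 5.13% of genes, and limma-voom called 0, where it called 0.532% of genes. The fitted log2 fold change was below 0 for 8 of the 9, where 51.2% of all genes lay above 0. The median of the 9 was -0.26, against a median of 0.0084 over all genes. These 9 values are not independent, since Acly, Acaca, Acacb and Fasn ran together over the libraries (described further on). The median of the members was -0.08 without old 1, -0.14 without old 2, -0.47 without old 3 and -0.41 without old 4, a move of more than 1.5 times for each of the 4. Without old 3 and old 4 together, which leaves old 1 and old 2, the median of the members was -0.87, with 9 of 9 below 0. The median over all genes was then -0.016, and 0 members were called. The mean standardized level of the 9 tested members was 0.39 and 0.23 in old 3 and old 4, against -0.99 and -0.89 in old 1 and old 2. Leaving out old 3 and old 4 therefore lowers the members' median by construction and tests nothing about age. With the counts of old 1 halved, the median of the members was -0.26 and 0 members were called. With young 1 as the only young library, it was -0.30, with 0 members and 0 genes in all called. The old and young values overlapped for all 9, while 6.53% of all genes had no overlap between the groups. Since these are bulk samples, fewer cells of a type and less RNA per cell cannot be told apart.

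**Figure D1:**
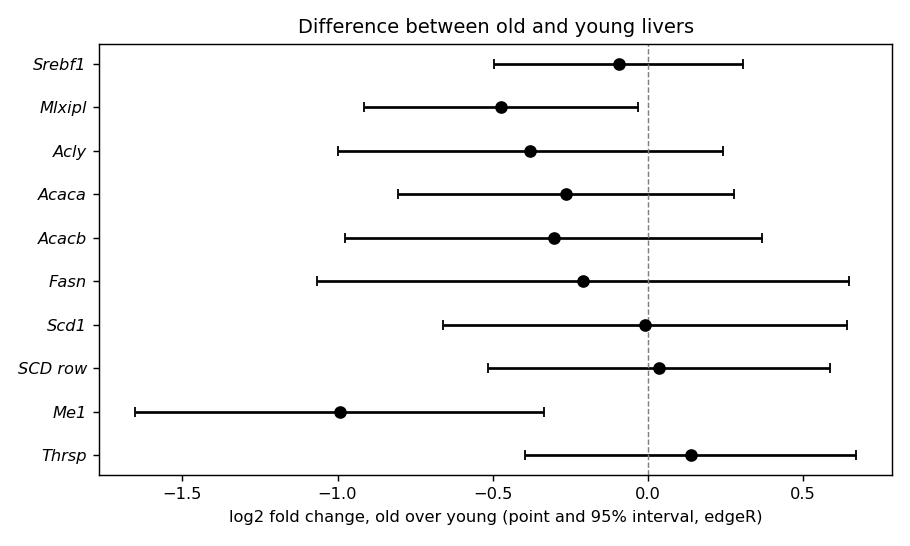
Log2 fold change of old over young livers (horizontal axis) for the 9 tested members and the uncertain SCD row (vertical axis), as edgeR's estimate with its 95% interval. The intervals of Mlxipl and Me1 lie below 0 before adjustment over all genes, and those of the others include 0.

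Neither transcription factor gene was called between the ages. Srebf1 stood at 434, 503, 481 and 456 CPM in old 1 to 4, against 719, 405, 543, 448 and 385 CPM in young 1 to 5. The old animals lay close together inside the young range, whose top was set by young 1. On the log2 scale the fold change was -0.09 with a 95% interval from -0.50 to 0.31 (edgeR adjusted p = 0.822). Mlxipl stood at 79.4, 138, 120.5 and 157 CPM in old 1 to 4, against 213, 186, 133, 154 and 173 CPM in young 1 to 5. Old 1 and old 3 lay below every young library, and the other old libraries lay within the young range. Its log2 fold change was -0.47 ± 0.20 (SE), with an interval from -0.92 to -0.03 and an edgeR adjusted p of 0.285, and it was -0.31 without old 1.

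RefSeq lists 2 start sites for Srebf1, and the deposited count per gene cannot tell their transcripts apart. Their promoter windows run from 250 bases before to 50 after each start. They are shown with those of Acly and Acacb, whose levels ran together over the libraries (described further on). The window of Me1, which had the largest fitted difference between the ages among the tested members, is also shown. All are from RefSeq on GRCr8, written 5′ to 3′ on the gene's strand, which is the minus strand in each case. Capitals mark the CCAAT box, read as CCAAT or as ATTGG on the other strand, to which the factor NF-Y is known to bind.
Srebf1, upstream start, chr10:45529115-45529414: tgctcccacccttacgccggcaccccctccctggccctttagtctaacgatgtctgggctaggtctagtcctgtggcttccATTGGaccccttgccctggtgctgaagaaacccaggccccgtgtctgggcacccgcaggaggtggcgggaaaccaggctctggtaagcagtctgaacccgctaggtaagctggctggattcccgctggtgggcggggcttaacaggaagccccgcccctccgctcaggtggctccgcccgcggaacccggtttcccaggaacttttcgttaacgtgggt
Srebf1, downstream start, chr10:45518961-45519260: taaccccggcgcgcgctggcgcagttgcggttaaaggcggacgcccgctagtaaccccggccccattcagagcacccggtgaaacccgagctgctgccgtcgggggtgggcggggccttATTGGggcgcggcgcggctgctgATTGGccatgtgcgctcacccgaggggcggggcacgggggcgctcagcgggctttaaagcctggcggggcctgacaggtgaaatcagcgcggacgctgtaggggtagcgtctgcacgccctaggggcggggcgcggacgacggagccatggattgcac
Acly, chr10:85963582-85963881: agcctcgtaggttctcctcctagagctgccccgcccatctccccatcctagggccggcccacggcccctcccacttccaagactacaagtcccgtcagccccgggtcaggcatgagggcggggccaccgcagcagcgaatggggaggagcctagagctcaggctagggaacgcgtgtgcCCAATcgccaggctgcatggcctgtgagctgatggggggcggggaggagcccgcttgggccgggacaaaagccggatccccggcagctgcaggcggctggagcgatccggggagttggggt
Acacb, chr12:48138165-48138464: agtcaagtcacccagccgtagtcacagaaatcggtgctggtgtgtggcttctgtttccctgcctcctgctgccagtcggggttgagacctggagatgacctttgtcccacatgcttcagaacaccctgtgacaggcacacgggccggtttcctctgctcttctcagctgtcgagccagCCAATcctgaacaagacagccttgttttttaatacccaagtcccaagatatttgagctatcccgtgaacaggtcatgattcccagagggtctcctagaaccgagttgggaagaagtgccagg
Me1, chr8:96540195-96540494: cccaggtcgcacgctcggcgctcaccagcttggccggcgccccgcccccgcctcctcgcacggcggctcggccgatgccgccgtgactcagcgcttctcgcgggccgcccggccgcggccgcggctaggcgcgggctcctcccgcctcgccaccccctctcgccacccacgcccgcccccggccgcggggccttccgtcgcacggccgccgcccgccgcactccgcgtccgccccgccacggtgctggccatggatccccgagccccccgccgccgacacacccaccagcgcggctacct
The Acly and Acacb windows each hold 1 CCAAT box, at -71 and -72 from the start, the upstream Srebf1 window holds 1, the downstream one holds 2, and the Me1 window holds none. Of the 10 members 7 were matched to 1 or more windows, 9 in all, and Acaca, Fasn and Elovl6 to none. A CCAAT box was in 7 of the 9 windows, of which the 2 of Mlxipl start 4 bases apart, against 37.5% of 33469 rat windows of this length. The GC box GGGCGG, read on both strands, was in 5 of the 9 windows and in 33.1% of all windows. There were 5 copies in Me1, 3 in Acly, 3 in each Srebf1 window and 1 in Thrsp. The sterol regulatory element TCACNCCAC and the E-box CACGTG, read on both strands, were in 0 of the 9 windows, and in 1.12% and 6.42% of all windows. No CCAAT match shared a base with a GC box match. A match of letters is a description of these windows only.

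Acly, which splits citrate into acetyl-CoA for the pathway, was split into a low and a high pair among the old animals. It stood at 303, 301, 651 and 661 CPM in old 1 to 4, against 591, 686, 828, 519.8 and 489 CPM in young 1 to 5. Old 1 and old 2 lay below every young library, and old 3 and old 4 lay within the young range. Its log2 fold change was -0.38, with an interval from -0.999 to 0.24 (edgeR adjusted p = 0.532), and it ran from -0.57 without old 4 to -0.21 without old 2.

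The acetyl-CoA carboxylase genes showed the same low and high pairs of old libraries. Acaca, whose enzyme makes the malonyl-CoA used for synthesis in the cytosol, stood at 57.8, 70.3, 136 and 125 CPM in old 1 to 4, against 102, 125.9, 106, 142 and 107 CPM in young 1 to 5. Acacb, whose enzyme sits at the mitochondrial outer membrane and makes malonyl-CoA that holds back fatty acid import, stood at 61.7, 68.8, 141 and 120.0 CPM in old 1 to 4, against 99.2, 120.5, 167, 146 and 71.8 CPM in young 1 to 5. For both genes old 1 and old 2 lay below every young library, and old 3 and old 4 lay inside the young range. Acaca had a log2 fold change of -0.26 (interval -0.81 to 0.28, edgeR adjusted p = 0.619) and Acacb of -0.30 (interval -0.98 to 0.37, edgeR adjusted p = 0.647). With 1 library left out, Acaca ran from -0.47 without old 3 to -0.08 without old 1, and Acacb from -0.53 without old 3 to -0.13 without old 1.

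Within a library these carboxylase genes can be set against each other with no scaling between libraries. The log2 ratio of Acacb to Acaca counts was 0.09, -0.03, 0.06 and -0.06 in old 1 to 4, against -0.04, -0.06, 0.65, 0.04 and -0.58 in young 1 to 5. The mean was 0.02 ± 0.07 in old and 0.0032 ± 0.44 in young livers (SD, n = 4 and 5), a difference of 0.01 (p = 0.889 by an exact permutation of the age labels, two-sided). The smallest p this design allows is 0.00794. The old animals lay between -0.06 and 0.09, while young 3 and young 5 lay on opposite sides of the others, and the difference changed sign in 4 of the 9 comparisons that left out 1 library. The log2 ratio of Mlxipl to Srebf1 averaged -1.96 ± 0.38 in old and -1.52 ± 0.39 in young livers (SD, n = 4 and 5), a difference of -0.44 (exact permutation p = 0.151, 0.302 adjusted over the 2 ratios). Old 1 alone lay below the lowest young library, at -2.45.

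Fasn, which makes palmitate, had the widest spread of the tested members among old animals. It stood at 549, 351, 1362 and 1267 CPM in old 1 to 4, against 1149, 1379.9, 886, 1007 and 673 CPM in young 1 to 5. Old 2 was the lowest and old 3 was 3.89 times as high, while old 3 and old 4 lay within the young range and old 1 and old 2 below it. Between the ages its log2 fold change was -0.21, with an interval from -1.07 to 0.65 (edgeR adjusted p = 0.815), and it was 0.06 without old 2 and -0.50 without old 3.

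Scd1, the desaturase that turns stearate into oleate, showed the reverse spread. It stood at 3137, 3588, 3768 and 3159 CPM in old 1 to 4, against 3918, 1880.5, 2996, 5979.7 and 2391 CPM in young 1 to 5. The old animals lay within 1.20 times of each other, and the young animals covered a 3.18-fold range, with young 4 highest and young 2 lowest. Its log2 fold change was -0.0084, with an interval from -0.66 to 0.64 (edgeR adjusted p = 0.992). The uncertain SCD row ran from 6.98 to 17.3 CPM in old and from 7.82 to 13.8 CPM in young livers (log2 fold change 0.04, edgeR adjusted p = 0.954).

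Elovl6, the elongase that takes palmitate to stearate, was nearly absent from the counts. It had 2, 6, 4 and 3 counts in old 1 to 4, against 11, 10, 12, 12 and 6 counts in young 1 to 5. It did not pass the low-count filter and was not tested with the other members. Old 2 met the lowest young count, and the other old libraries had fewer counts than any young one. With no low-count filter its log2 fold change was -1.38, with an interval from -2.45 to -0.30 and an edgeR adjusted p of 0.247. The annotation behind the counts is not given in the sources used here, so the low level can be read only as that of the deposited row.

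Me1, cytosolic malic enzyme, had the largest fitted difference of the tested members. It stood at 28.9, 26.8, 33.04 and 18.4 CPM in old 1 to 4, against 55.4, 42.1, 77.0, 65.8 and 26.005 CPM in young 1 to 5. Young 5 lay among the old animals, and the other young livers lay above all of them. The mean was 26.8 ± 6.17 CPM in old and 53.3 ± 19.97 CPM in young livers (SD, n = 4 and 5), a 0.502-fold level with an interval from 0.318 to 0.793. This was a log2 fold change of -0.99 ± 0.30 (SE). The edgeR adjusted p was 0.147, and DESeq2 gave an adjusted p of 0.0221, the only alternative under which Me1 passed. Over all alternative settings its log2 fold change lay between -1.18 and -0.82.

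Thrsp, whose protein Spot 14 is linked to lipogenesis and is induced by thyroid hormone, was the only tested member with a fitted value above 0. It stood at 823, 472, 916 and 1046 CPM in old 1 to 4, against 854, 978, 571, 579 and 715 CPM in young 1 to 5. Old 2 was the lowest of all libraries and old 4 the highest. Its log2 fold change was 0.14, with an interval from -0.40 to 0.67 (edgeR adjusted p = 0.802), which turned to -0.027 when libraries were scaled by their totals alone.

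**Figure D2:**
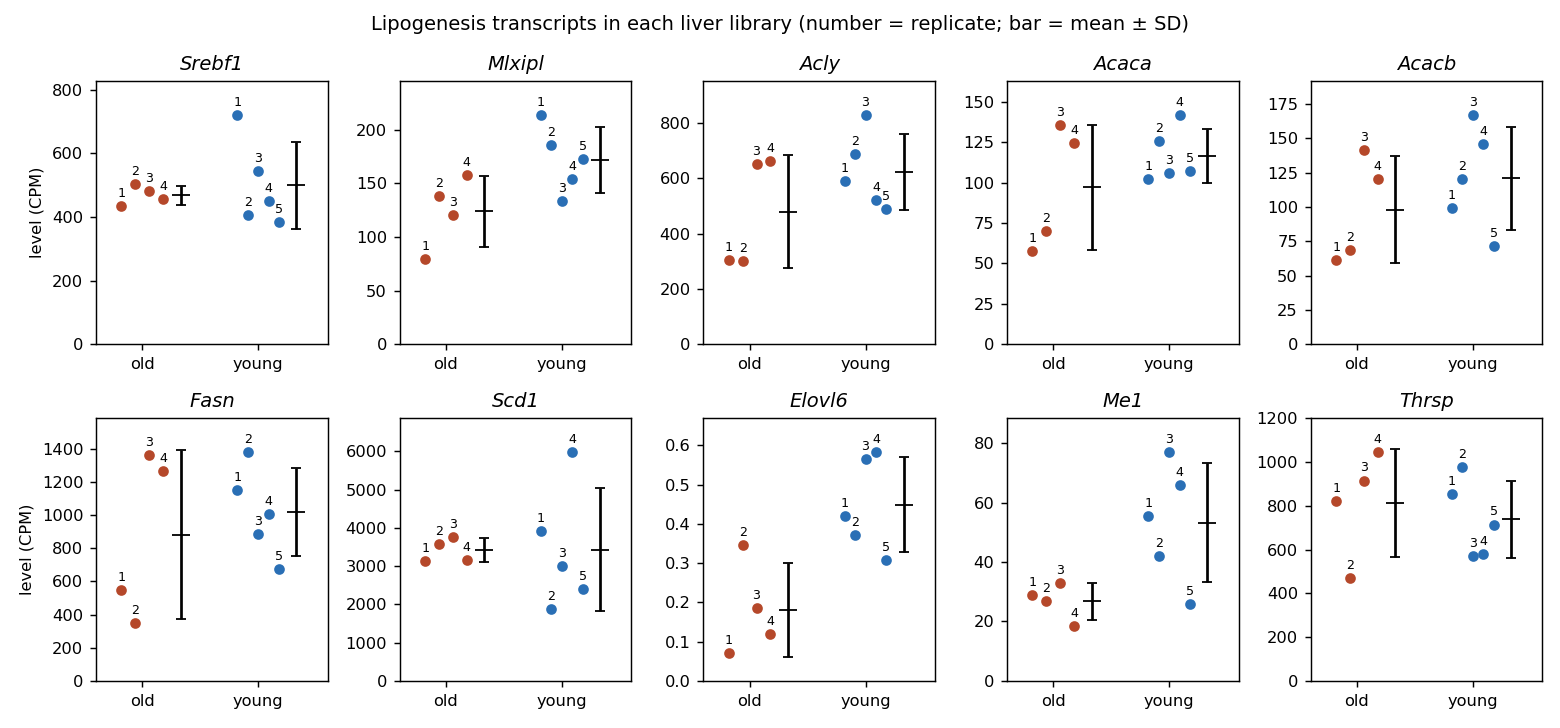
Level in CPM (vertical axes, each from 0) of the 10 members in every library, old left of young, with the replicate number above each point and the mean ± SD as a bar. Old 1 and old 2 lie together below old 3 and old 4 for Acly, Acaca, Acacb and Fasn, while the old points of Srebf1 and Scd1 lie close together.

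The spread between animals differed from gene to gene. On the log2 CPM scale the SD of Fasn was 0.95 in old and 0.39 in young livers, that of Acaca was 0.61 in old and 0.20 in young livers, and that of Acly was 0.65 in old and 0.31 in young livers. Srebf1 went the other way, with 0.09 in old and 0.37 in young livers, as did Scd1 with 0.13 in old and 0.65 in young livers and Me1 with 0.36 in old and 0.62 in young livers. In all, 6 of the 9 tested members had a larger SD in old livers, where 74.9% of the 7117 genes averaging 10 CPM or more did. The median SD over those genes was 0.23 in old and 0.14 in young livers.

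Several enzyme genes ran together from library to library. Among 21 pairs of the 7 tested enzyme and Thrsp genes, chosen for this look after their values had been seen, 3 passed a permutation test of Pearson's r over the 9 libraries with adjustment over the 21. These were Acly with Acacb (r = 0.86, adjusted permutation p = 0.0451), Acly with Fasn (r = 0.84, 0.0451) and Acaca with Acacb (r = 0.805, 0.0451). Spearman's rho for these pairs was 0.77, 0.73 and 0.72, and none of the 21 pairs passed by rho (adjusted permutation p = 0.182 for each of the 3). Without old 1 and old 2, the libraries farthest from the median, r was 0.67 for Acly with Acacb, 0.40 for Acly with Fasn and 0.47 for Acaca with Acacb. For Acly with Acaca it was 0.805 over all libraries and -0.12 without them, so these relations rest in large part on old 1 and old 2. Centred on the mean of each age group, r was 0.84, 0.83 and 0.78 for the 3 pairs that passed. Fasn and Thrsp had r = 0.70 with all libraries and 0.70 without old 1 and old 2 (rho = 0.80, adjusted permutation p = 0.100 for r and 0.182 for rho). The values share the library and its scaling.

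No relation between a regulator transcript and an enzyme transcript passed its test. Of 15 relations, in which Srebf1 and Mlxipl were each set against the 7 genes and against each other, 0 passed after adjustment by r or by rho, and 0 had an unadjusted permutation p under 0.05 for r or rho. Srebf1 had r = 0.10 with Fasn (rho = -0.03), 0.175 with Acly (rho = 0.183) and 0.405 with Scd1 (rho = 0.53), with adjusted permutation p-values of 0.845, 0.845 and 0.807 for r and 1.0, 0.965 and 0.965 for rho. Without young 1 and young 3, farthest from the median of Srebf1, these r were -0.21, -0.25 and 0.61. The largest r of the family was 0.58, for Mlxipl with Acaca (rho = 0.18, adjusted permutation p = 0.807 for r and 0.965 for rho), and it was 0.15 without old 1 and young 1.

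**Figure D3:**
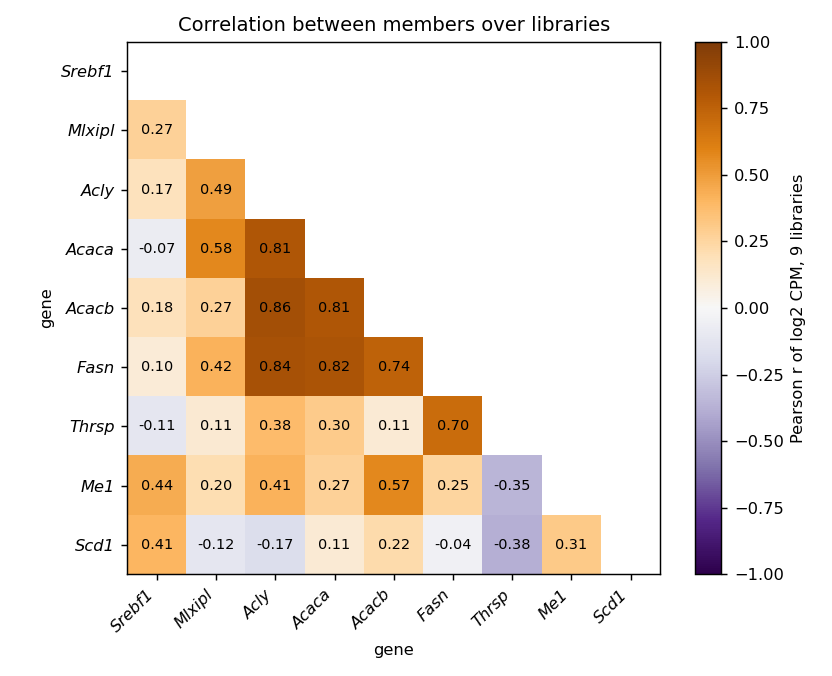
Pearson's r of log2 CPM over the 9 libraries for each pair of tested members (both axes list the genes, the colour and the number give r). The values among Acly, Acaca, Acacb and Fasn run from 0.745 to 0.859, and those of Srebf1 with the other members from -0.11 to 0.44.

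**Figure D4:**
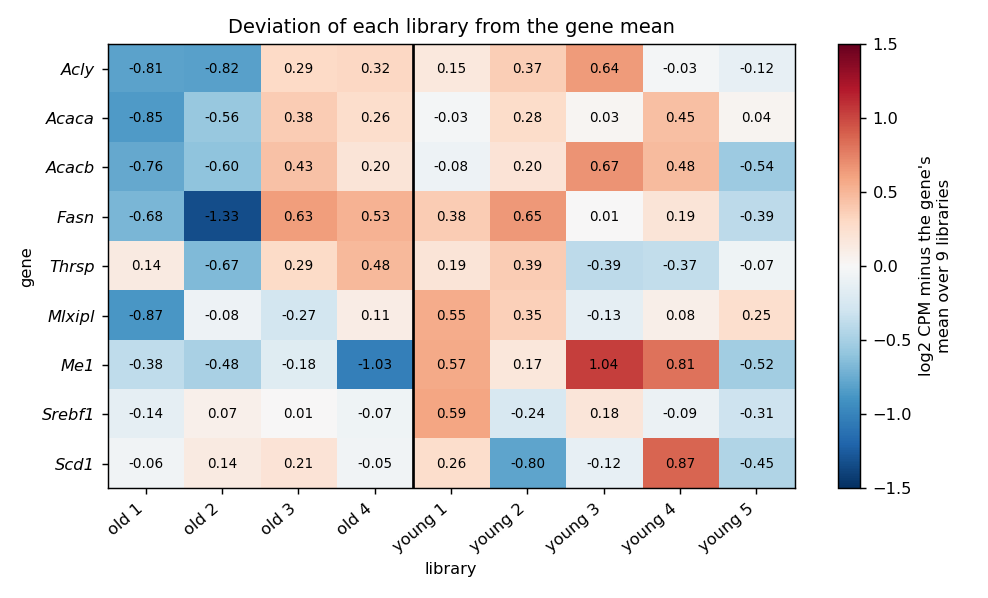
Log2 CPM of each tested member (rows) in each library (columns, old left of young) minus the mean of that gene over the 9 libraries. Old 1 and old 2 are below the mean for Acly, Acaca, Acacb and Fasn, with -1.33 for Fasn in old 2, and old 3 and old 4 are above it.

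The Insig genes, whose proteins retain the SREBP and SCAP complex, were looked at after their values had been seen. Insig2 stood at 591, 518, 170 and 207 CPM in old 1 to 4, against 439, 458, 492, 419 and 508 CPM in young 1 to 5. Old 1 and old 2 lay above all young livers and old 3 and old 4 below all of them. The log2 fold change of Insig2 was -0.32 with an interval from -1.08 to 0.44 (edgeR adjusted p = 0.671), and with 1 library left out it ran from -0.64 without old 1 to -0.08 without old 3. Insig1, itself a known SREBP target, stood at 139, 96.1, 283 and 333 CPM in old 1 to 4 and between 155 and 252 CPM in young livers. Here old 1 and old 2 lay below and old 3 and old 4 above all young livers. The log2 fold change of Insig1 was 0.0064 with an interval from -0.74 to 0.75 (edgeR adjusted p = 0.994). The share of all genes with such a split of the old libraries was not counted.

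Of the listed genes that feed, control or follow the pathway, the 2 that edgeR called, Pc and G6pc, were lower in old livers. Among 11 genes of carbon supply, the median log2 fold change was -0.12, against 0.0084 over all genes. In this list 1 was lower (0.344% of all genes) and 0 higher (0.657%). It was Pc, pyruvate carboxylase, which fell to 301 ± 34.3 CPM in old livers, against 492 ± 30.6 CPM in young livers (SD, n = 4 and 5; log2 -0.71, edgeR adjusted p = 0.0236). Pklr, liver pyruvate kinase and a ChREBP target, stood at 237, 208, 251 and 277 CPM in old 1 to 4, against 349.8, 371, 296, 343 and 303 CPM in young 1 to 5. Its groups did not overlap, as for 6.53% of all genes. Its log2 fold change was -0.45 ± 0.12 (SE), with an edgeR adjusted p of 0.105. The DESeq2 adjusted p was 0.00543, where DESeq2 called 5.13% of all genes. Pdhb, a subunit of pyruvate dehydrogenase, had a log2 fold change of -0.34 (edgeR adjusted p = 0.210).

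Among 9 tested genes that ChREBP is known to act on outside lipogenesis, the median was 0.06. In this list 1 was lower (0.344% of all genes) and 0 higher (0.657%). It was G6pc, glucose-6-phosphatase, which fell to 537 ± 196 CPM in old livers, against 1185 ± 124 CPM in young livers (SD, n = 4 and 5; edgeR adjusted p = 0.0407). Without young 2, 3, 4 or 5 in turn Pc lost its call, with edgeR adjusted p-values of 0.0521 to 0.0732, and G6pc lost its call without any 1 library other than old 2, with 0.0532 to 0.108. In old 2 the level of G6pc was 827 CPM, and in old 1, 3 and 4 it was 403 to 487 CPM. Fgf21, a liver hormone, had a log2 fold change of 1.44 with an interval from 0.08 to 2.79 (edgeR adjusted p = 0.288), and of 0.65 without old 1, where it stood at 10.2 CPM.

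None of the further SREBP-1 targets passed by edgeR, where 1.00% of all genes did. Of 10 tested, 1 was higher and 2 lower at an unadjusted p under 0.05, against 8.94% and 6.96% of all genes. DESeq2 called 1, Gpam, against 5.13% of all genes, and the median was -0.13. Gpam, which starts triglyceride synthesis, stood at 395, 441, 354 and 832 CPM in old 1 to 4 and between 182 and 378 CPM in young livers (log2 0.87 ± 0.28 SE, edgeR adjusted p = 0.166; DESeq2 adjusted p = 0.0376), and without old 4 its log2 fold change was 0.52. The polyunsaturated fatty acid genes Elovl5 and Fads2 had log2 fold changes of -0.56 and -0.46 (edgeR adjusted p = 0.213 and 0.278).

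Of the 5 tested NADPH genes 0 were called by edgeR, DESeq2 or limma-voom, against 1.00%, 5.13% and 0.532% of all genes. At an unadjusted p under 0.05 there were 0, against 15.9% of all genes by edgeR. The median log2 fold change was -0.06. Taldo1 and Tkt, enzymes of the pentose phosphate route, had log2 fold changes of -0.12 and -0.06 (edgeR adjusted p = 0.602 and 0.805).

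Of 14 genes that process or assist SREBP, edgeR, DESeq2 and limma-voom called 0, against 1.00%, 5.13% and 0.532% of all genes. The median was 0.05. At an unadjusted p under 0.05, 1 was higher and 1 lower, against 8.94% and 6.96% of all genes. Scap, the escort of SREBP, stood at 122, 96.1, 184 and 101 CPM in old 1 to 4 and between 86.9 and 106 CPM in young livers (log2 0.41, edgeR adjusted p = 0.305), and without old 3 its log2 fold change was 0.17. The coactivator gene Ppargc1b had a log2 fold change of -0.93 and Nr1h3, which encodes the oxysterol receptor LXR alpha, of 0.21 (edgeR adjusted p = 0.284 and 0.363), which was 0.11 for Nr1h3 without old 1.

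Of 8 genes that LXR is known to act on outside lipogenesis, edgeR, DESeq2 and limma-voom called 0, with a median of 0.20. They called 1.00%, 5.13% and 0.532% of all genes. At an unadjusted p under 0.05, 1 was lower, against 6.96% of all genes. That gene was Abcg5, a sterol exporter subunit, which stood at 1.62, 10.9, 0.554 and 3.37 CPM in old 1 to 4 and between 8.16 and 17.2 CPM in young livers. Its log2 fold change was -1.72 (edgeR adjusted p = 0.262). With 1 library left out it ran from -2.82 without old 2 to -1.35 without old 3. Old 2 had the highest old level, and the fit without it gave the lowest edgeR adjusted p of these fits, 0.0298. The partner of Abcg5, Abcg8, had a log2 fold change of -1.65 and the phospholipid transfer protein gene Pltp of 0.93 (edgeR adjusted p = 0.408 and 0.423). With 1 library left out Abcg8 ran from -2.56 without old 2 to -1.24 without old 1. Pltp ran from 0.11 without old 3 to 1.26 without old 1.

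Genes that read or set malonyl-CoA and the insulin signal were called in neither direction by edgeR. Of 4 malonyl-CoA genes edgeR called 0 (1.00% of all genes), with 1 lower at an unadjusted p under 0.05, against 6.96% of all genes. DESeq2 called 1, Cpt1a (adjusted p = 0.0118), against 5.13% of all genes, and the median was -0.13. Cpt1a, the mitochondrial fatty acid gate that malonyl-CoA inhibits, stood at 166, 91.0, 111 and 90.9 CPM in old 1 to 4, against 186, 463, 229.6, 219 and 162 CPM in young 1 to 5. Its log2 fold change was -1.13 ± 0.32 (SE, edgeR adjusted p = 0.134), while those of the muscle form Cpt1b and of malonyl-CoA decarboxylase Mlycd were -0.35 and 0.09 (edgeR adjusted p = 0.548 and 0.699).

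Of 10 insulin signalling genes edgeR called 0 (1.00% of all genes), with 2 higher at an unadjusted p under 0.05, against 8.94% of all genes. DESeq2 called 1, Irs2 (adjusted p = 0.0433), against 5.13% of all genes, and the median was 0.07. Irs2, an adaptor of the insulin receptor, stood at 19.5, 43.3, 13.9 and 18.9 CPM in old 1 to 4 and between 6.53 and 16.0 CPM in young livers (log2 1.13 ± 0.37 SE, edgeR adjusted p = 0.188), and without old 2 its log2 fold change was 0.68. Prkcz, an atypical protein kinase C gene, and Akt2, the main insulin-responsive kinase gene in liver, had log2 fold changes of 0.62 and 0.20 (edgeR adjusted p = 0.160 and 0.371), and that of Akt2 was 0.12 without old 4. Of 9 genes of AMPK, the kinase that inhibits acetyl-CoA carboxylase, and of its upstream kinase, 0 were called by edgeR, DESeq2 or limma-voom. The shares called over all genes were 1.00%, 5.13% and 0.532%. The median of the 9 was 0.11, with 1 higher at an unadjusted p under 0.05, against 8.94% of all genes. The subunit genes Prkag2, Prkab2 and Prkaa1 had log2 fold changes of 0.49, 0.37 and -0.31 (edgeR adjusted p = 0.309, 0.335 and 0.409). Without old 4 the value of Prkag2 was 0.24, and without old 3 that of Prkaa1 was -0.50.

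**Figure D5:**
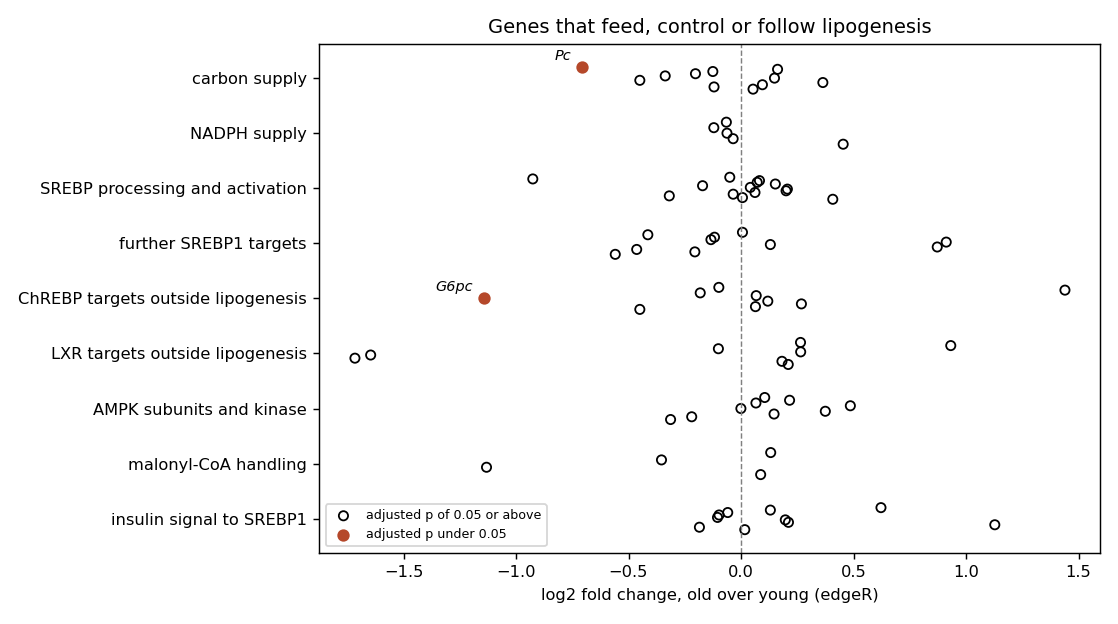
Log2 fold change of old over young livers (horizontal axis) for each tested gene of 9 lists around lipogenesis (vertical axis), filled where edgeR's adjusted p was under 0.05. Pc at -0.71 and G6pc at -1.14 are the only filled points.

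The genes whose level over the 9 libraries was most like the mean standardized level of the 9 tested members were Tep1, Secisbp2l, Pvrl2, Dnaja2, Tmtc3 and Rps6ka4. Their Pearson r with that mean ran from 0.92 to 0.95, as the highest among 6740 named genes averaging 10 CPM or more, and the values share the libraries. Secisbp2l, which encodes a relative of a selenocysteine-insertion factor, stood at 40.4, 47.1, 90.6 and 88.0 CPM in old 1 to 4 and between 67.1 and 116 CPM in young livers. None of the 6 was called between ages by edgeR, which called 1.00% of all genes, with the lowest adjusted p at 0.348 for Pvrl2.

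Depth and markers of cell types also differed between libraries. Total counts ran from 18586798 to 32882704 in old and from 18942191 to 25215805 in young libraries, and in old 1 all counts were even. Summed over 8 hepatocyte markers, all in the table, old livers held 215400 to 333700 CPM and young livers 182700 to 206000 CPM, with 1 marker called higher. Alb, the albumin gene, made up 132600 to 220900 CPM of this in old and 102200 to 110800 CPM in young livers. For every other hepatocyte marker the old and young values overlapped. When libraries were scaled by their totals alone, all genes had a median log2 of -0.17 and the 9 members one of -0.42, with 9 of 9 below 0. Fat cells also make the lipogenic enzymes. All 9 adipocyte markers were in the table and 5 were tested, with a summed level of 84.7 to 105 CPM in old and 81.5 to 108 CPM in young livers. Cidec, which hepatocytes can also express, made up 56.7 to 77.7 CPM of this in old and 59.3 to 87.1 CPM in young livers. Lep was at 0 in every library, and Adipoq, the adiponectin gene, was at 0.138 CPM in old 3, 0.0486 CPM in young 4 and 0 in the rest. Heart muscle markers (18 of 18 in the table, 16 tested, 3 lower) had a sum of 3.97 to 7.57 CPM in the old livers, of 13.6 CPM in young 1, and of 108 to 134 CPM in the 4 remaining young livers. Their part in the level of Acacb, which heart is known to express, was not tested. In young 1 to 5 these markers summed to 13.6, 119, 108, 134 and 123 CPM, beside 99.2, 120.5, 167, 146 and 71.8 CPM of Acacb. Red cell markers (7 of 7 in the table, 6 tested, 4 higher) summed to 589 to 2462 CPM in old and 78.3 to 443 CPM in young livers. Lymphocyte markers (10 of 10, 7 tested, 2 higher) summed to 11.8 to 39.0 CPM in old and 5.43 to 8.39 CPM in young livers. Kupffer cell and macrophage markers (7 of 8, 6 tested, 0 called) summed to 56.9, 205.6, 569.5 and 277 CPM in old 1 to 4. In young 1 to 5 they summed to 253, 171, 176, 96.1 and 119 CPM. Endothelial markers (7 of 7, all tested, 1 lower) summed to 127 to 266 CPM in old and 233 to 274 CPM in young livers. The part of these cell types in the members' levels was not tested.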

How the data were processed

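Poly(A) RNA of 9 rat livers was sequenced, and the table the authors deposited holds whole-number read counts for each gene symbol, not normalized. Libraries came from an Illumina TruSeq kit after Qiagen column purification, per the labels' protocols; this kit does not mark strand, so overlapping genes on opposite strands cannot be told apart. Per the submitters' processing notes reads were aligned with BWA, and the version, genome build, annotation and counting tool are not given in the sources used here.

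Genes were kept with edgeR's filterByExpr (minimum count 10, minimum total 15), which left 12778 of 18071 genes with any count. TMM scaling and a robust quasi-likelihood fit over all 9 libraries compared old with young by a two-sided F test, with Benjamini-Hochberg adjustment over all genes tested. Log2 CPM values used an added count of 0.5. Ratios added 0.5 to each count and were tested by exact two-sided permutation of the age labels. Correlations were tested over all pairings of 9 libraries. On simulated counts for the old against young comparison with 12602 genes, this fit recovered 57 of 100 genes changed 2-fold and 89 of 100 changed 4-fold, with 5 false calls. There each gene varied alike in both groups, and the changed genes were drawn at random from all genes kept. The rates are therefore not those of the members, whose spread differed between the ages. Counts limit the precision of rare genes: 3 counts equal 0.111 to 0.173 CPM in the libraries other than old 1, and this covers counting error only. In old 1 3 counts would equal 0.106 CPM, but every count there was even.

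Members and lists were chosen with earlier results of these data known. The genes named were all members, each list's called genes and its 3 smallest p-values, and the 6 most similar genes. Insig1 and Insig2 were added after their values were seen. The values of 1 gene that this rule names are not reported here. Of the listed genes Pgd and Tkfc had no row under that symbol in the table used here. The labels give no batch. Alternatives were other scalings and filters, DESeq2, limma-voom, limma-voom with library quality weights, a replicate block, old 1 halved and fits without certain libraries. Fits ran in edgeR 4.0.16, with DESeq2 1.42.0 and limma 3.58.1 for alternatives, under R 4.3.3. Permutations used scipy 1.17.1 and figures matplotlib 3.10.9, under Python 3.11.15.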

Additional observations from a re-analysis of the deposited data

Results flagged for a closer look

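In 110 groups of libraries (members, other named genes, marker sums and ratios, within old or within young), 9 values stood apart from the rest of their group by Dixon's gap test at 95%, where about 1 in 20 would do so by chance. None was a lipogenesis member. Elovl5 reached 365 CPM in old 2, while old 1, 3 and 4 lay between 272 and 280.1 CPM. Cpt1a reached 463 CPM in young 2, with 162 to 229.6 CPM in the other young livers. Mlycd stood at 85.5 CPM in old 1, against 66.5 to 68.7 CPM in the other old livers, and at 59.2 CPM in young 2, against 68.3 to 71.4 CPM in the other young livers. Pltp stood at 30.8 CPM in young 1, against 16.0 to 18.7 CPM, and Prkab2 at 2.82 CPM in young 1, against 3.73 to 3.84 CPM in the other young livers. Heart muscle markers summed to 13.6 CPM in young 1 and to 108 to 134 CPM in the other young livers. Monocyte and neutrophil markers summed to 137 CPM in old 3, against 2.59 to 7.48 CPM in the other old livers, and to 2.41 CPM in young 3, against 1.41 to 1.65 CPM in the other young livers.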

How the results depend on the processing

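The count of members called was 0 under all 22 alternatives except DESeq2, which called 1. Of 198 fold changes of the 9 tested members under these alternatives, 183 kept their direction and side of the threshold, 14 changed sign and 1, Me1 under DESeq2, passed, and the SCD row changed sign in 7 of 22. Among 594 fold changes of 27 list genes, 564 kept direction and side, 6 changed sign, 6 passed and 18, of Pc and G6pc, no longer passed. The log2 fold changes that changed sign were, with totals-only scaling, -0.13 for the SCD row, -0.027 for Thrsp and -0.0925 for Mlycd. With limma-voom they were 0.11 for Scd1 and -0.0447 for the SCD row, and with quality weights 0.0050 for Srebf1 and 0.11 for Scd1. Without old 3 and old 4 together they were -0.34 for the SCD row, -0.20 for Thrsp, -0.25 for Pltp and 0.25 for Insig2. With young 1 alone against the old libraries they were -0.0609 for Thrsp, 0.0814 for Taldo1 and 0.21 for Tkt, and young 1 was assumed to vary like the old libraries. With 1 library left out, values ran from -0.50 to 0.0554 for Fasn, -0.17 to 0.074 for Srebf1, -0.16 to 0.29 for Scd1, -0.26 to 0.21 for the SCD row, -0.0043 to 0.33 for Thrsp and -0.0076 to 0.12 for Mlycd. The log2 ratio difference ran from -0.13 to 0.18 for Acacb to Acaca, and from -0.58 to -0.28 for Mlxipl to Srebf1. The cause of these changes was not tested.

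The count over all genes, 128, was 280 with totals-only scaling, 655 by DESeq2, 68 by limma-voom, 53 with quality weights, 0 with young 1 alone, and 30 to 201 with 1 library left out. The share of higher calls was 84 of 128 with TMM and 72 of 280 with totals-only scaling. With a replicate block on numbers 1 to 4 the count was 33, against 39 for the same 8 libraries without it, members called stayed at 0, Scd1 was 0.0047, the SCD row -0.0448, and the Acacb to Acaca ratio difference -0.13. Pc and G6pc were called neither with the block (edgeR adjusted p = 0.115 and 0.0772, log2 -0.73 and -1.18) nor in the same 8 libraries without it (edgeR adjusted p = 0.0521 and 0.0936). The numbers share no stated source. Old and young libraries of the same number deviated together with r = -0.08, 0.06, 0.25 and -0.18 for numbers 1 to 4, and only number 3 had its own number as its best match.

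Counting error limits Elovl6, at 2 to 12 counts, and spread between 4 and 5 animals limits the rest.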
